A study of Rattus norvegicus with 6 samples.

Results

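The coagulation and fibrinolysis genes described here are 9 genes of clotting on cell surfaces and of fibrin removal, namely F3, Tfpi, Thbd, Procr, F2r, Plat, Plau, Plaur and Serpine2. They were chosen by gene name from the 21210 gene names with at least 1 annotated transcript, and all 9 were found, with 28 transcripts between them. The samples were lungs of Sprague-Dawley rats that were 7 weeks old at the start. The PF model group (3 libraries) was given 7 mg/kg of bleomycin once into the trachea, the control group (3 libraries) was given saline, and lungs were taken on day 28. Bleomycin is a drug that injures the alveolar lining and leaves scarred lung in rats, which is used as a model of pulmonary fibrosis. Libraries were made from total RNA depleted of ribosomal RNA. The libraries came from 3 PF model and 3 control rats, and the unit of all levels below is FPKM, fragments per kilobase of transcript scaled to the size of the library.

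Clotting in tissue starts when tissue factor (F3) meets plasma factor VII, and the thrombin that follows cuts fibrinogen to fibrin and also signals to cells through the receptor PAR1 (F2r). Endothelium holds this process back with tissue factor pathway inhibitor (Tfpi), with thrombomodulin (Thbd), which turns thrombin towards activation of protein C, and with the endothelial protein C receptor (Procr). Fibrin is removed by plasmin, which is made from plasminogen by the tissue activator (Plat) and by urokinase (Plau) bound to its receptor (Plaur). Serpine2 encodes protease nexin 1, an inhibitor of thrombin and of both plasminogen activators. Fibrin in the air spaces and a raised inhibition of plasmin formation are known features of injured and fibrotic lung.

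Promoter sequences of 6 of the 9 genes were found in RefSeq (build GRCr8). The 250 bases before the start are shown for the 3 receptors, F2r, Plaur and Procr, since each holds 1 match to the AP-1 motif TGANTCA, and for the pair of starts of Tfpi, since its transcripts were assembled from more than 1 start. Capitals mark TGANTCA and the GC box GGGCGG, searched on both strands, and no other letters. The F2r stretch is chr2:28620580-28620829 (minus strand), the Plaur stretch chr1:89181113-89181362 (plus strand) and the Procr stretch chr3:164714477-164714726 (plus strand). The Tfpi stretches are chr3:89980725-89980974 and chr3:89983544-89983793 (minus strand), the second lying 2819 bases further upstream. These RefSeq starts were not matched to the starts of the assembled transcripts, whose genome build is not given in the sources used here.
F2r: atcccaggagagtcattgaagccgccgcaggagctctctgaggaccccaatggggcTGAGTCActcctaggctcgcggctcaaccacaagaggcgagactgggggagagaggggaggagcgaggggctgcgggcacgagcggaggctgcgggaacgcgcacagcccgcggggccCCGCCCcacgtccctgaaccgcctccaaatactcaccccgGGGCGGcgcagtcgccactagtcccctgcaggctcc
Plaur: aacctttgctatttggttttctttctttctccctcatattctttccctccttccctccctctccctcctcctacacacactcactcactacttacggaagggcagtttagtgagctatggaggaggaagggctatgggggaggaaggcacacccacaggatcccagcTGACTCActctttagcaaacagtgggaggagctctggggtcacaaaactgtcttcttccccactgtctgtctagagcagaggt
Procr: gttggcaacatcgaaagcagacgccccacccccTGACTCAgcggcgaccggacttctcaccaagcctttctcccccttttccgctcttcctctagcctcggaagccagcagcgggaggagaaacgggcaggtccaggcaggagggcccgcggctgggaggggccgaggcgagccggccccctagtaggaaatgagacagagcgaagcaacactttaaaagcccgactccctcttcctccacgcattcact
Tfpi downstream start: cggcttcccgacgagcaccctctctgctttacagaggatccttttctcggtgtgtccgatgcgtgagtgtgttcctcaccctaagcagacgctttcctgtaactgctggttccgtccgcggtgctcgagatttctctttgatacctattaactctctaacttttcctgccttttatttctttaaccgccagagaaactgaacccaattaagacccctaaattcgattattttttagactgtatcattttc
Tfpi upstream start: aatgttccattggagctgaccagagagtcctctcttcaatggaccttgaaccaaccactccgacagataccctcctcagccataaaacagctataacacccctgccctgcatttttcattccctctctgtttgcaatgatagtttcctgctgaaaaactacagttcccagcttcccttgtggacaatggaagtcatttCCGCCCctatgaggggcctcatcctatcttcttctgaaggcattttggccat
Over all 33469 promoter stretches of this length, 6.34% held TGANTCA and 30.5% held GGGCGG. The AP-1 match began 194 bases before the start in F2r, 83 in Plaur and 217 in Procr. Of the 7 stretches of these genes, 3 held TGANTCA, 4 held GGGCGG and 0 held TATAAA, which was present in 12.9% of all stretches. These are matches of letters only, and binding was not measured.

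The 6 libraries were alike in size but less so in make-up. Transcripts named by an Rfam family number took between 34.1% (model 2) and 46.4% (model 1) of the summed FPKM. The red cell gene Hbb lay between 211.9 FPKM (control 1) and 575.8 FPKM (model 2). The summed coverage of all transcripts corresponded to between 35778600 and 41112700 reads of 150 bases per library, and the 10 most abundant transcripts took between 25.7% and 34.2% of the summed FPKM. Across the tested genes, which are not independent replicates, Pearson's r of log2(FPKM + 1) lay between 0.965 and 0.972 for libraries of the same group and between 0.962 and 0.976 for libraries of different groups. Alveolar markers were plentiful, with summed levels of the 5 type 2 cell genes between 4244 and 6553 FPKM. The sum of heart muscle genes stood apart in 1 library. The 4 genes listed (Myh6, Nppa, Tnnt2 and Actn2) summed to between 0.553 and 0.727 FPKM in control libraries. In model 1, model 2 and model 3 the sums were 0.766, 0.63 and 10.5 FPKM. Myh6, the cardiac myosin heavy chain, was listed at 0 in all control libraries and in model 1 and had 5.11 FPKM in model 3. Of the 3 heart muscle genes tested 1 was called, Nppa, at means of 0.0357 and 0.157 FPKM. Nppa did not stand apart in model 3, with 0.167, 0.154 and 0.150 FPKM in model 1, 2 and 3. In bulk tissue, fewer cells of a type and less RNA per cell cannot be told apart.

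Model and control lungs were compared for each gene with limma, on log2(FPKM + 1) of the FPKM summed over the transcripts that carry the gene name. The fit covered 19203 genes with a value above 0 in at least 3 of the 6 libraries. Genes were called where the unadjusted p did not exceed 0.05 and the FPKM means of the groups lay at least 1 log2 unit apart. Nothing was added to these means, whereas the log2 fold changes given here are of FPKM + 1. A low gene can thus be called at a log2 fold change below 1, as Nppa was (0.16). Of the 9 genes, 0 were called, where 1.53% of all genes tested were called. At an unadjusted p of at most 0.05 alone, 0 of the 9 passed in limma, where 4.9% of all genes did, and after Benjamini-Hochberg adjustment below 0.05 it was 0 of the 9, where 0.0104% of all genes passed. The log2 fold changes (model minus control) lay between -0.07 and 0.26 with a median of 0.10, beside a median of -0.01 over all genes. The values of the 3 model libraries overlapped those of the 3 control libraries for each of the 9 genes, where the groups did not overlap for 10.7% of all genes. For 8 of the 9 the 95% confidence interval of the difference stayed within 1 log2 unit of 0 on the FPKM + 1 scale, F2r being the exception. The same held for 17820 of the 19203 genes tested. This scale understates changes of low genes such as Procr and Serpine2. Exact permutation tests of each gene (two-sided, 3 libraries against 3, smallest possible p = 0.1) gave p values from 0.2 to 1.0.

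**Figure D1:**
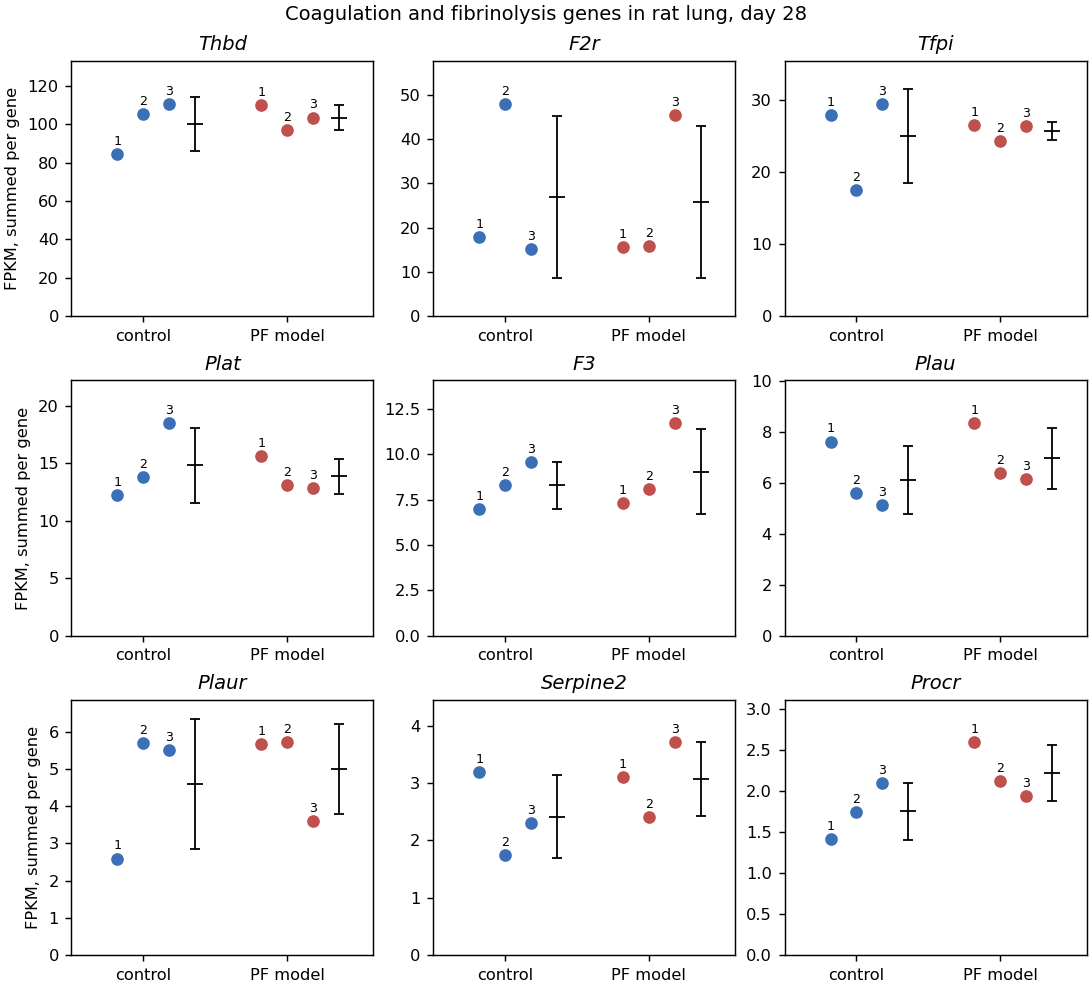
FPKM summed per gene (vertical axes, from 0) of the 9 genes in each control library (blue) and PF model library (red), numbered by replicate, with the mean and SD of each group in black (n = 3). The groups overlap for every gene, and F2r stands at 48.0 FPKM in control 2 and 45.5 FPKM in model 3 against 15.0 to 17.8 FPKM in the other libraries.

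The levels of the 9 genes spanned from 1.99 FPKM (Procr) to 101.8 FPKM (Thbd) as means over the 6 libraries. Thbd lay above 98.9% of all genes tested and Procr above 36.4%. Between them, in falling order, came F2r (26.3 FPKM), Tfpi (25.4), Plat (14.4), F3 (8.67), Plau (6.54), Plaur (4.80) and Serpine2 (2.74). Of the 8 steps in this order, 2 had ranges over the libraries that did not overlap, Thbd over F2r and Plat over F3. Tfpi was above Plat and Serpine2 above Procr in 6 of 6 libraries although their ranges overlapped, while F2r was above Tfpi in only 2 of 6. The F2r and Plaur sums include transcripts inside introns, with means of 2.23 FPKM for F2r and of 1.55 and 1.12 FPKM for Plaur. Without these, the mean of F2r would stand below that of Tfpi and the mean of Plaur below that of Serpine2. The anticoagulant genes of endothelium stood both near the top of the order (Thbd, Tfpi) and at its end (Procr).

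F3, the trigger of the cascade, is annotated on chromosome 2 from 225310624 to 225322272 on the plus strand (the build of the table is not given in the sources used here). Its summed level was 6.99, 8.29 and 9.60 FPKM in control 1, 2 and 3 and 7.34, 8.06 and 11.7 FPKM in model 1, 2 and 3. Model 3 was the highest of the 6 libraries and the other model libraries lay within the control range. The means were 8.30 ± 1.30 (SD, n = 3) and 9.04 ± 2.36 FPKM, a log2 fold change of 0.10 (standard error 0.19, 95% confidence interval -0.36 to 0.55, limma adjusted p = 0.970). Without model 3 the log2 fold change was -0.09, and without control 1 it was -0.01. Model 3 is also the library with the raised sum of heart muscle genes. The part of these genes in its F3 level was not tested beyond leaving the library out.

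Most of the F3 signal lay in assembled transcripts that differ from the annotated one. The annotated transcript, ENSRNOT00000015836 (6 exons, 1822 bases), had 0.621, 1.13 and 2.19 FPKM in control and 0.633, 0.656 and 5.81 FPKM in model libraries, or between 8.13% and 49.5% of the gene's sum. High values were those of model 3 and, less so, control 3. The remainder was shared by 3 assembled transcripts of class j, which share a splice junction with the annotation. MSTRG.20724.2, 6230 bases long, starts 1434 bases upstream of the annotated start and had a mean of 3.03 FPKM. MSTRG.20724.1 starts 8648 bases upstream and had between 0.656 and 2.96 FPKM, with the highest value in model 2. MSTRG.20724.3 starts at the annotated site and had a mean of 2.60 FPKM. The log2 fold changes of the 4 transcripts lay between -0.28 and 0.25, with unadjusted p values from 0.390 to 0.710, so the raised annotated transcript in model 3 was a feature of 1 library and not of the group.

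Tfpi, which blocks tissue factor bound to factor VII, is annotated on chromosome 3 from 71852744 to 71893618 on the minus strand. Its sum was 27.99, 17.6 and 29.6 FPKM in control libraries and 26.6, 24.3 and 26.4 FPKM in model libraries. Control 2 was the lowest, and the 3 model libraries lay between it and the other control libraries. The means were 25.0 ± 6.51 and 25.8 ± 1.27 FPKM (SD, n = 3), a log2 fold change of 0.07 (95% confidence interval -0.39 to 0.53, limma adjusted p = 0.983). Without control 2 it was -0.15 (limma adjusted p = 0.946).

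Tfpi had 8 transcripts, the most of the 9 genes, and these differ at both ends. By their 3' ends, 4 of them stop 7238 bases before the annotated far end, and these summed to 15.7, 13.4 and 20.8 FPKM in control and 18.03, 15.3 and 18.3 FPKM in model libraries. The other 4 reach to or near the far end, with 12.3, 4.12 and 8.74 FPKM in control and 8.57, 8.97 and 8.05 FPKM in model libraries. The far-end sum had an SD of 4.10 FPKM among control libraries, with control 2 lowest and control 1 highest, and of 0.461 FPKM among model libraries. By their 5' ends, the most abundant transcript, MSTRG.23288.7 (mean 8.93 FPKM, 29.5% to 38.7% of the gene), starts 467 bases upstream of the annotated start. MSTRG.23288.6 starts 3031 bases upstream and had 4.22, 5.92 and 5.85 FPKM in control and 6.11, 3.50 and 6.09 FPKM in model libraries. Its share of the gene was between 14.4% and 33.7%. The 2 annotated transcripts held less, with means of 2.27 FPKM (ENSRNOT00000006787) and 1.07 FPKM (ENSRNOT00000057685). MSTRG.23288.2 (mean 4.55 FPKM) and MSTRG.23288.4 (1.43 FPKM) cover only the 3' part of the gene, and MSTRG.23288.5 had a mean of 1.66 FPKM. The remaining transcript, MSTRG.23288.1, had a mean of 0.206 FPKM.

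Thbd, the thrombin receptor of endothelium that turns thrombin to protein C, is a gene of 1 exon on chromosome 3 from 142748674 to 142752325 on the minus strand. It had 84.4, 105.3 and 110.8 FPKM in control and 109.8, 97.1 and 103.5 FPKM in model libraries. All model libraries lay inside the control range. With between 14299 and 19766 estimated reads per library and a single transcript, its estimate was the most precise of the 9, at a log2 fold change of 0.05 (95% confidence interval -0.24 to 0.34, limma adjusted p = 0.973). The interval corresponds to between 0.849-fold and 1.27-fold on the FPKM + 1 scale. Without control 1 the log2 fold change was -0.06. Of the endothelial markers, the 5 of 7 listed genes that were found summed to between 244.2 and 272.9 FPKM in control and between 237.9 and 263.7 FPKM in model libraries, and 0 of the 5 were called.

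Procr, which presents protein C to thrombomodulin, was the lowest of the 9. Its only transcript, on chromosome 3 from 151285249 to 151289595 on the plus strand, had 1.41, 1.74 and 2.10 FPKM in control and 2.59, 2.13 and 1.94 FPKM in model libraries. The highest 2 values were from model libraries, and model 3 lay below control 3. The means were 1.75 ± 0.347 and 2.22 ± 0.337 FPKM (SD, n = 3), a log2 fold change of 0.23 (95% confidence interval -0.13 to 0.59). Its unadjusted limma p of 0.171 was the smallest of the 9 (adjusted p = 0.934). Per library, the FPKM ratio of Thbd to Procr was 59.9, 60.5 and 52.7 in control and 42.4, 45.6 and 53.4 in model libraries, with the ranges overlapping at control 3 and model 3. Between 96.1 and 184.8 estimated reads per library stood behind Procr.

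F2r, the thrombin receptor PAR1 found on fibroblasts, endothelium and smooth muscle, split the libraries, but not by group. It is annotated on chromosome 2 from 26118760 to 26135340 on the minus strand. The RefSeq promoter stretch shown above was not matched to this annotated start. Its sum was 17.8, 48.0 and 15.0 FPKM in control and 15.6, 15.9 and 45.5 FPKM in model libraries. Thus 1 control and 1 model library stood far above the other 4, which lay close together. The estimated reads were 7212 in control 2 and 8675 in model 3 and between 2525 and 2827 in the others. The log2 fold change was -0.06 with a standard error of 0.56 (95% confidence interval -1.40 to 1.28, limma adjusted p = 0.997), an interval from 0.380-fold to 2.43-fold. Without control 2 it was 0.44, without model 3 it was -0.55, and without model 1 or model 2 it was 0.19 or 0.18. The within-group coefficient of variation, 67.4%, was the largest of the 9, where the median was 13.01% over the 12008 genes with a mean level within the range of the 9. The related receptors F2rl1 and F2rl2 did not share the split: F2rl1 had 1.87 FPKM in control 2 and 1.85 FPKM in model 3, within a range of 1.67 to 2.46 FPKM over the 6 libraries, and F2rl2 had 1.61 and 0.881 FPKM in these 2 libraries. Smooth muscle markers, 4 of 4 found, summed to 93.6 FPKM in control 2, to 164.7 FPKM in model 3 and to between 93.2 and 127.1 FPKM in the other libraries. Their part in the F2r level was not tested.

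The transcripts behind the high F2r values differed between the 2 libraries. The annotated transcript, ENSRNOT00000074626 (2 exons, 3429 bases), had 12.3, 42.9 and 10.5 FPKM in control and 6.64, 9.55 and 0 FPKM in model libraries. Every control value was above every model value, with a log2 fold change of -2.13 (limma adjusted p = 0.945). The assembled transcript MSTRG.18506.1 (4116 bases, class o, overlapping an annotated exon) had 0, 2.67 and 0 FPKM in control and 3.98, 1.44 and 43.0 FPKM in model libraries, a log2 fold change of 2.40 (adjusted p = 0.945). In model 3 all of the signal on the strand of F2r was thus assigned to this transcript, and in control 2 nearly all to the annotated one, at nearly the same level. MSTRG.18506.1 starts 13308 bases downstream of the annotated start and ends 1060 bases beyond the annotated end. Of the other assembled transcripts, MSTRG.18506.3 had a mean of 1.54 FPKM, and MSTRG.18506.2 was above 0 in model 1 only. MSTRG.18508.1, of class i, lies in the intron of F2r on the opposite strand and is included in the sum by its gene name. It stayed between 1.73 and 2.61 FPKM in the 6 libraries and did not share the split.

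**Figure D2:**
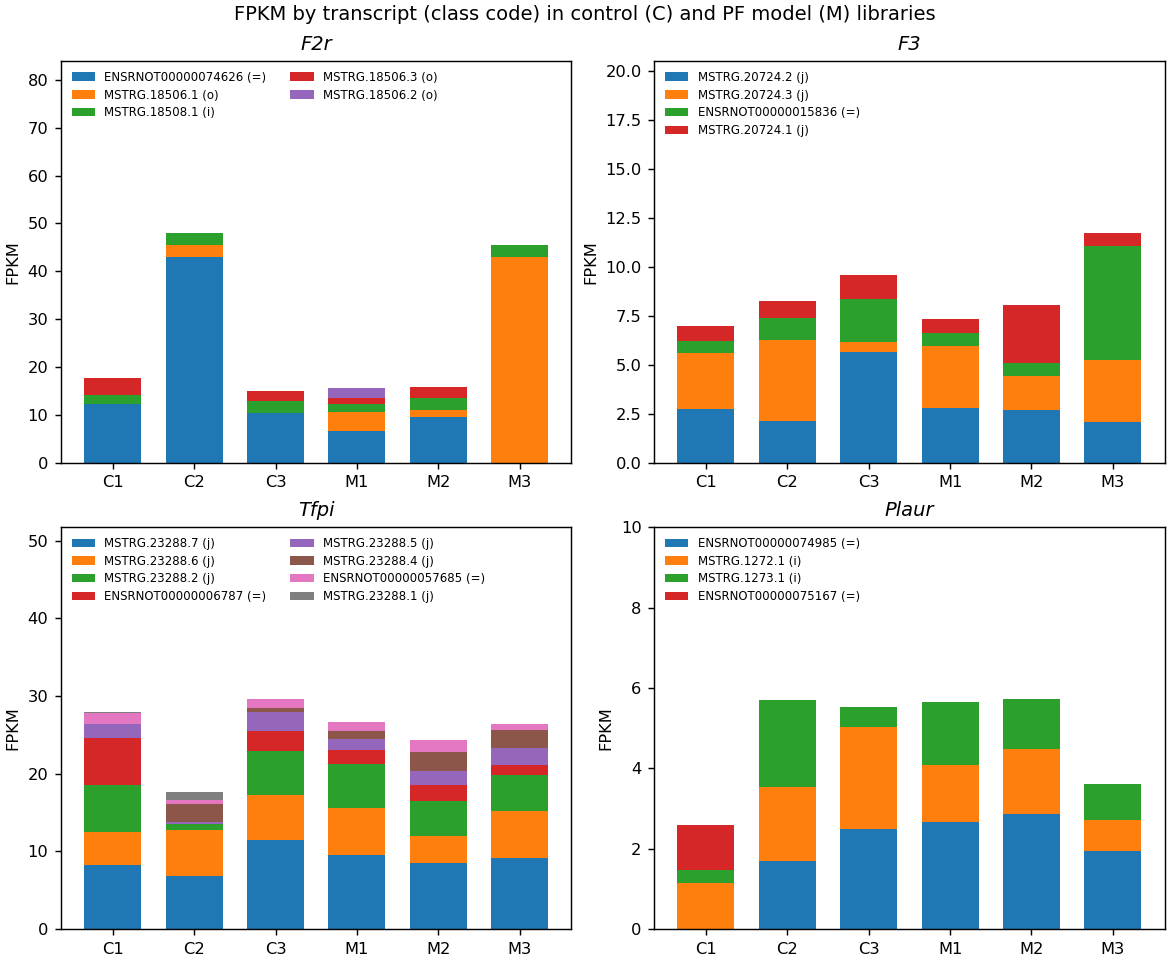
Stacked FPKM (vertical axes, from 0) of each transcript of F2r, F3, Tfpi and Plaur in control (C1 to C3) and PF model (M1 to M3) libraries, with the class code of each transcript in brackets. F2r reaches 48.0 FPKM in C2 through its annotated transcript and 45.5 FPKM in M3 through MSTRG.18506.1, and the Plaur transcripts inside introns sum to between 1.46 and 4.01 FPKM per library.

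Of the plasminogen activators, Plat (tissue type, chromosome 16 from 74098260 to 74122889, minus strand) was the more abundant. It had 12.2, 13.8 and 18.5 FPKM in control and 15.7, 13.2 and 12.8 FPKM in model libraries. Control 3 was the highest and the model libraries lay inside the control range. The log2 fold change was -0.07 (95% confidence interval -0.46 to 0.32, limma adjusted p = 0.972), and 0.09 without control 3. Its annotated transcript of 14 exons held between 78.0% and 91.7% of the signal, and the shorter MSTRG.14499.2, which starts 16968 bases downstream, held the rest with a mean of 2.55 FPKM.

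Plau, the urokinase gene on chromosome 15 from 3644769 to 3650819 on the minus strand, had 1 transcript of 11 exons. Its level was 7.62, 5.59 and 5.13 FPKM in control and 8.35, 6.39 and 6.14 FPKM in model libraries. Model 1 and control 1 were high and the other 4 lay between 5.13 and 6.39 FPKM. The means were 6.12 ± 1.33 and 6.96 ± 1.21 FPKM (SD, n = 3), with a log2 fold change of 0.17 (95% confidence interval -0.25 to 0.59, limma adjusted p = 0.940).

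Plaur, the receptor that holds urokinase at the cell surface, lies on chromosome 1 from 81328183 to 81344708 on the plus strand. Its sum was 2.59, 5.71 and 5.52 FPKM in control and 5.67, 5.72 and 3.61 FPKM in model libraries. Control 1 and model 3 were low, and the other 4 lay between 5.52 and 5.72 FPKM. The log2 fold change was 0.13 (95% confidence interval -0.56 to 0.82, limma adjusted p = 0.972), and -0.16 without control 1. In estimated reads the annotated transcripts held more than the intronic ones in 5 of 6 libraries, control 2 being the exception with 71.2 annotated and 88.5 intronic reads. The intronic transcripts MSTRG.1272.1 and MSTRG.1273.1, of no assigned strand, had means of 1.55 and 1.12 FPKM, and the annotated ENSRNOT00000074985 had 0, 1.70 and 2.50 FPKM in control and 2.68, 2.86 and 1.94 FPKM in model libraries. In control 1 the annotated signal was assigned instead to ENSRNOT00000075167 (1.13 FPKM), which was at 0 in the other 5 libraries. Without the intronic transcripts the log2 fold change was 0.35, and with only 100.5 to 229.5 estimated reads per library in all, neither value is precise.

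Serpine2, the inhibitor protease nexin 1, lies on chromosome 9 from 85560863 to 85626094 on the minus strand. Its sum was 3.18, 1.75 and 2.31 FPKM in control and 3.10, 2.41 and 3.71 FPKM in model libraries. Model 3 was the highest and control 2 the lowest, with overlap between. The log2 fold change, 0.26 (standard error 0.20, 95% confidence interval -0.23 to 0.76, limma adjusted p = 0.934), was the largest of the 9. The 2 annotated transcripts alternated between libraries: ENSRNOT00000020919 had 1.35, 0 and 2.29 FPKM in control and 2.35, 1.93 and 2.93 FPKM in model libraries, and ENSRNOT00000077331 had 1.83, 1.75 and 0.0178 FPKM in control and 0.757, 0.484 and 0.780 FPKM in model libraries. The latter starts 8140 bases downstream. The control libraries differed in this mix, while all 3 model libraries had more of the former than of the latter.

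**Figure D3:**
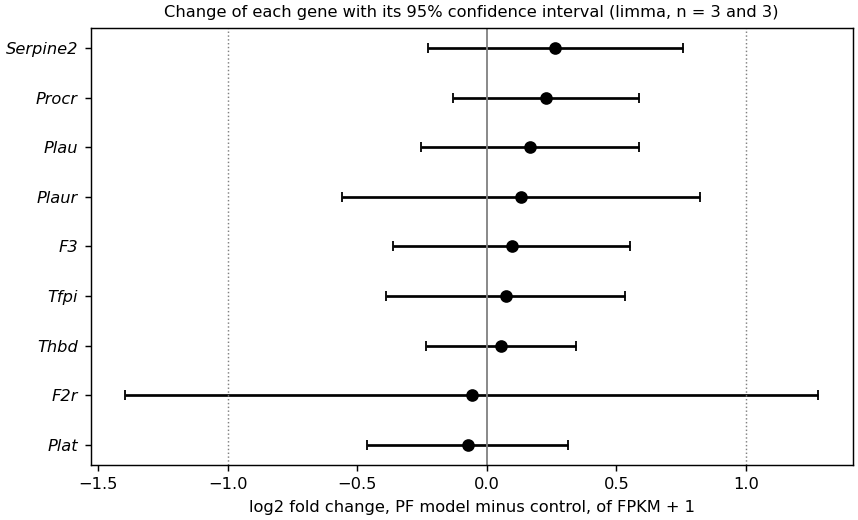
Log2 fold change of FPKM + 1 (horizontal axis, PF model minus control, with dotted lines at -1 and 1) of each of the 9 genes, with points for the estimate and bars for the 95% confidence interval from limma (n = 3 and 3). Every interval holds 0, and only that of F2r, from -1.40 to 1.28, reaches beyond 1 log2 unit.

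Of the 28 transcripts of these genes, 26 were above 0 in at least 3 libraries and were tested, and 2 (MSTRG.18506.2 and ENSRNOT00000075167) were not. In the limma fit over 64867 transcripts, 0 of the 26 were called, where 2.98% of all transcripts were, and 0 had an unadjusted p of at most 0.05. The groups did not overlap for 1 of the 26, the annotated F2r transcript, where this held for 10.4% of all transcripts. No circRNA among the 5216 deposited has 1 of the 9 genes as its host, at between 2037 and 2964 back-splice reads per library.

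Of 41 further names of clotting and fibrinolysis genes, 32 were found in the table and 30 were tested. Of these, 0 were called, beside 1.53% of all genes. In limma 1 had an unadjusted p of at most 0.05, beside 4.9% of all genes, and the groups did not overlap for 2, beside 10.7% of all genes, so neither count stood above the background. The median log2 fold change was 0.0014, with 15 above and 15 below 0. The genes that did not overlap are given as values only and were chosen after these were seen. F11, plasma factor XI, had 2.40, 3.36 and 2.75 FPKM in control and 1.99, 2.01 and 1.93 FPKM in model libraries (log2 fold change -0.36, limma adjusted p = 0.934). Tfpi2, a relative of Tfpi, was between 0.218 and 0.334 FPKM in control and between 0.136 and 0.216 FPKM in model libraries.

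Genes of some plasma proteins that the liver makes, also chosen after their values were seen, differed widely in level. Prothrombin (F2) was at most 0.348 FPKM and plasminogen (Plg) at most 0.0440 FPKM in any library. The fibrinogen gamma chain (Fgg) was found at 8.90 to 14.4 FPKM, and factor VIII (F8), which endothelium makes, at 13.6 to 19.6 FPKM. Among hepatocyte markers, 2 of 4 listed genes were found and summed to at most 0.184 FPKM in any library.

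The most abundant genes of the list have varied roles. Vwf, which carries factor VIII and tethers platelets, had 179.4, 87.8 and 77.2 FPKM in control and 152.3, 149.7 and 117.4 FPKM in model libraries, with control 1 the highest of all (log2 fold change 0.37, 95% confidence interval -0.39 to 1.14). Gas6, a vitamin K-dependent ligand of the TAM receptors, had a mean of 116.1 FPKM, and Anxa2 and S100a10, which together bind plasminogen and Plat on cells, had means of 74.6 and 17.1 FPKM. Serping1, the C1 inhibitor, had 57.3 FPKM, Lrp1, which clears complexes of proteases and inhibitors, 49.3 FPKM, and Thbs1, thrombospondin 1, 34.8 FPKM. The adjusted limma p of these 7 genes lay between 0.934 and 0.952.

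Ratios between the 9 genes were chosen after the values were seen, and 4 were compared. Besides Tfpi to F3 and Thbd to Procr, these were Plau to Plaur and Plat to Plau. The groups overlapped for all 4. The smallest p, 0.2 for Thbd to Procr (exact permutation test of the log2 ratio, two-sided), was 0.8 after Benjamini-Hochberg adjustment over the 4. The ratio of Tfpi to F3 was 4.003, 2.12 and 3.08 in control and 3.62, 3.01 and 2.25 in model libraries, with all model values inside the control range.

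**Figure D4:**
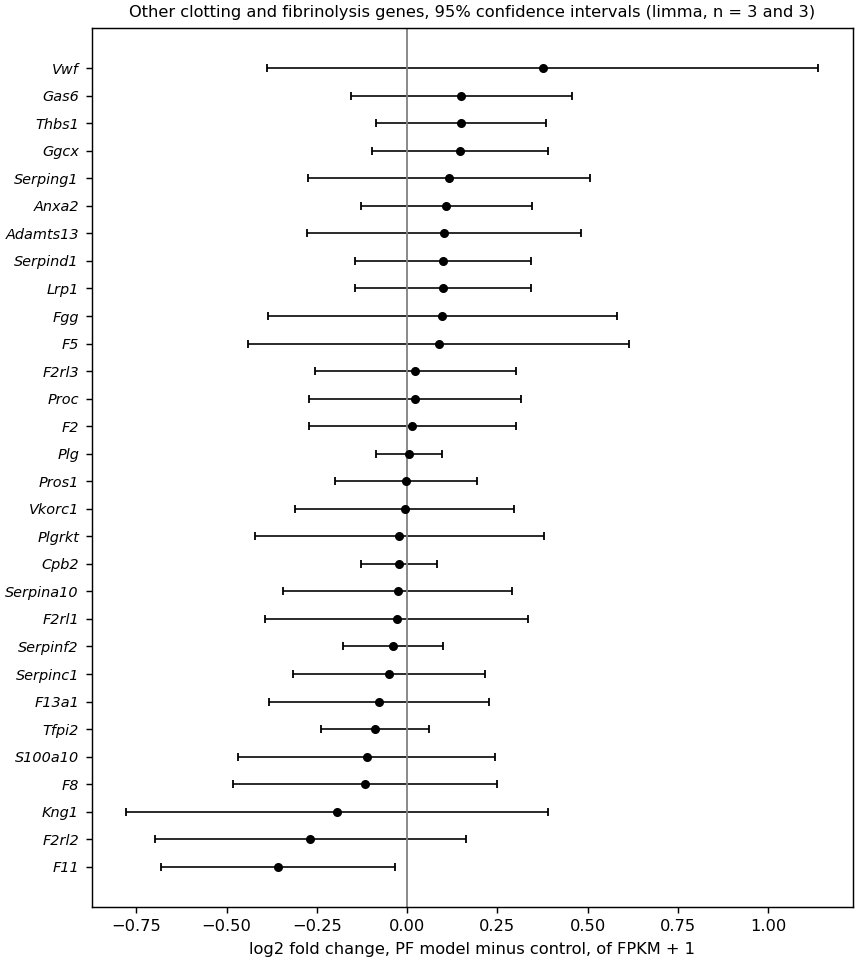
Log2 fold change of FPKM + 1 (horizontal axis, PF model minus control) of the 30 other clotting and fibrinolysis genes tested, with points for the estimate and bars for the 95% confidence interval from limma (n = 3 and 3). The interval of F11 lies below 0, at an adjusted p of 0.934, and the intervals of the other 29 hold 0.

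Markers of cells that carry these genes were summed per library. Fibroblast markers, 5 of 5 found, summed to between 262.9 and 283.6 FPKM in control and between 288.9 and 361.7 FPKM in model libraries without overlap (exact permutation p = 0.1, two-sided, the smallest that 3 against 3 allows). Within that list the collagen chains Col3a1 and Col1a1 had higher means in model libraries (168.5 and 208.3 FPKM for Col3a1, 62.99 and 72.4 FPKM for Col1a1), while Pdgfra, Dcn and Lum had log2 fold changes of -0.06, -0.13 and -0.10. The limma adjusted p of these 5 genes lay between 0.934 and 0.970. Macrophage markers, 4 of 6 found, lay between 44.7 and 67.3 FPKM in control and between 44.5 and 70.1 FPKM in model libraries, and platelet markers, 5 of 5 found, between 10.9 and 20.1 FPKM and between 12.9 and 17.5 FPKM. The low macrophage sums came from Cd68, at 1.30 FPKM in control 3 and 1.21 FPKM in model 2. In the other libraries Cd68 lay between 20.7 and 22.8 FPKM, and Csf1r, Mrc1 and Adgre1 showed no such split. None of the 9 genes separated the groups in the way the summed fibroblast markers did, and neither did the sum of any other marker list. Several marker lists were compared, and the permutation p of the fibroblast sum was not adjusted for their number. Among single genes the groups did not overlap for 10.7% of all genes tested.

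The genes whose log2(FPKM + 1) followed each of the 9 most closely over the 6 libraries were looked up among 13889 genes with a mean of at least 1 FPKM. Pearson's r of the nearest gene lay between 0.984 and 0.998, and for each of the 9 between 14 and 47 genes had an r above 0.95. With 6 libraries and this many genes such values describe these libraries only. The nearest genes were Blk for F3, Mbd1 for Tfpi, Syk for Thbd, Ralgps1 for Procr, Zbtb37 for F2r, Rnase3 for Plat, LOC103692173 for Plau, Myl12a for Plaur and Prrc1 for Serpine2.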

How the data were processed

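Lung RNA of 3 control and 3 PF model samples was sequenced by the authors as paired reads of 150 bases. Cutadapt was used by the authors for trimming, Bowtie2 and Tophat2 for mapping (the submitters' processing notes also name HISAT2), and StringTie for assembly and merging. The authors deposited FPKM from StringTie and Ballgown and the unscaled per-base coverage signal of each transcript. The authors also deposited raw counts of back-splice reads per circRNA from CIRCexplorer, and SRPBM, a scaled signal not used here. The genome build is not given in the sources used here.

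FPKM were summed per gene name. StringTie splits reads among transcripts of a gene, so values of single transcripts are less certain than sums. Reads were estimated as coverage times length divided by 150. Groups were compared with limma 3.58.1 (trend) in R 4.3.3 on log2(FPKM + 1), which understates changes of low genes. Features above 0 in at least 3 libraries were tested, with the p and fold thresholds of the study's methods and Benjamini-Hochberg adjustment. The fold threshold was applied to the group means without the added 1, for genes and for transcripts. The test was checked on simulated data, with planted changes far larger than those of the 9 genes. They were planted only in genes above the level of Procr and Serpine2, so the check does not cover changes of the size reported here. The 9 genes, the list of 41 names and the marker lists were chosen with earlier results of these data known. From that list the rule named genes called, of which there were 0, and the 8 most abundant. F11, Tfpi2, F2, Plg, Fgg, F2rl1 and F2rl2 were added after their values were seen, the others enter the counts only, and 1 further gene is not reported here. Transcripts are named at a mean of at least 1 FPKM or when called, and others were added after their values were seen. Alternatives were the pseudocount, the filter, the way of summing, the scaling, the trend, a replicate block and leaving out each library. Python 3.11.15, pandas 2.3.3, scipy 1.17.1 and matplotlib 3.10.9 were used.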

Additional observations from a re-analysis of the deposited data

How the results depend on the processing

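Among the 9 genes and the 30 of the wider list, 0 were called under each of the 16 alternatives. Few genes were called at all, between 80 and 519 under these alternatives, beside 1.53% of 19203 genes in the main fit. At such shares 0 of 9 or 0 of 30 does not stand out. Some alternatives could not change the log2 fold change. These include the filter, the trend and the replicate block, and for Procr and Plau, with 1 transcript each, the way of summing. The direction held in all 16 for Procr, Plau and Serpine2, which under such alternatives was fixed in advance. It reversed with the sum weighted by transcript length for F3 (-0.037) and F2r (0.057), with annotated transcripts only for Tfpi (-0.020), and with FPKM rescaled to TPM for F2r (0.024) and Plat (0.0050). The annotated F2r transcript alone gave -2.13, as stated above. With 1 library left out, the log2 fold change ranged from -0.087 to 0.22 for F3, -0.15 to 0.20 for Tfpi, -0.063 to 0.13 for Thbd, 0.14 to 0.32 for Procr, -0.55 to 0.44 for F2r, -0.20 to 0.086 for Plat, 0.05 to 0.31 for Plau, -0.16 to 0.31 for Plaur and 0.12 to 0.42 for Serpine2. These values stayed uncalled.

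Of the transcripts of the 9 genes, 26 in each of these fits, the pseudocount 0.1 called 1 (MSTRG.18506.1 of F2r; 2.98% of all transcripts were called), the replicate block called 1 (the annotated F2r transcript; 3% of all), and leaving out 1 library called between 0 and 3 (3.27% to 3.92% of all). Without control 3 the 3 were both Serpine2 transcripts and MSTRG.23288.1 of Tfpi, without control 2 they were MSTRG.1273.1 of Plaur and MSTRG.23288.4 of Tfpi, and without model 2 MSTRG.18506.1. The replicate numbers are not stated to pair the samples, and deviations of equal numbers from their group means had correlations of 0.07, 0.03 and -0.07 across genes. Over all genes, 293 were called (311 with the replicate block), 132 of them higher in the model. A mean of at least 1 FPKM left 80 and annotated transcripts alone gave 519, and with TPM 194 were higher and 138 lower. The cause of these shifts was not tested. Procr, Plaur and Serpine2 rest on at most 348.6 estimated reads per library, and limits from depth and from spread were not separated.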
